A study of Homo sapiens with 8 samples.

Results

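The interferon receptor genes IFNGR1, IFNGR2, IFNAR1 and IFNAR2, the kinase genes JAK1 and JAK2, and the transcription factor genes STAT2, IRF9 and IRF1 were described in the ovarian cancer line UWB1.289. They were chosen by gene symbol, and all 9 were found among the 25369 named genes of the count table. UWB1.289 carries a BRCA1 mutation and lacks the functional protein (BRCA1-null), and its derivative received a BRCA1 transgene (BRCA1+), so that each genotype is represented by 1 cell line. Each line was kept for 24 h in the vehicle DMSO (control) or in entinostat, which inhibits the histone deacetylases HDAC1 and HDAC3, at 0.5 uM. Poly(A) RNA was sequenced in 8 libraries, 2 for each of the 4 groups. No group received interferon according to the labels, and the labels do not say whether the 2 libraries of a group came from separate cultures, so that p-values measure only the spread between these libraries.

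Interferons act through paired receptor chains on the cell surface. IFNAR1 and IFNAR2 bind the type I interferons, and IFNGR1 and IFNGR2 bind interferon-gamma. Receptor-bound Janus kinases then phosphorylate STAT proteins: JAK1 serves both receptors, JAK2 serves the interferon-gamma receptor and TYK2 the type I receptor. Downstream of type I interferon, STAT2 and IRF9 enter a complex that binds the interferon-stimulated response element (ISRE), whereas interferon-gamma leads to binding at the gamma-activated site (GAS) and induces IRF1, a transcription factor that activates antigen presentation genes. In ovarian carcinoma cells this pathway is known for controlling MHC class I, chemokines and PD-L1.

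The libraries held between 31900158 and 53549893 counts. Where a gene has no count, up to 3 counts remain possible, or 0.0552 to 0.0946 CPM (counts scaled by the TMM-adjusted library size), which covers counting error only. BRCA1 itself had 3954 and 4239 counts under DMSO and 4233 and 5473 under entinostat in the BRCA1+ line, and 954 and 1218 under DMSO and 824 and 800 under entinostat in the BRCA1-null line, a log2 difference between lines of -2.14 ± 0.0862 (SE) in DMSO (adjusted p = 5.45e-07, edgeR quasi-likelihood test). All 13 epithelial and ovarian carcinoma markers were detected, although WT1, a marker of serous carcinoma, reached only 1 to 20 counts. Of 17 lymphocyte and myeloid markers, 4 were at 0 in all libraries. CD3D had no count, CD3E 0 to 4 counts and PTPRC 93 to 214 counts. The summed level of these 17 genes was 16.9 to 18.5 CPM under DMSO and 23.6 to 26.0 under entinostat in the BRCA1+ line, and 27.8 to 30.5 and 32.2 to 40.8 in the BRCA1-null line. Of the 9 that were tested between the lines in DMSO, CD68 (1.23) and LYZ (1.25) were higher and CD14 (-2.06) lower in BRCA1-null cells. CD68 had 377 and 394 counts in BRCA1+ control against 999 and 1106 in BRCA1-null control libraries, and CD14 107 and 117 against 42 and 20. The 8 fibroblast and endothelial markers summed to 5.80 to 9.89 CPM under DMSO and 9.56 to 13.2 under entinostat in the BRCA1+ line, and to 17.2 to 21.5 and 26.2 to 37.3 in the BRCA1-null line. DCN had no count. Of the 5 that were tested between the lines in DMSO, THY1 (4.38), KDR (2.06) and VWF (1.20) were called higher in the BRCA1-null line. PECAM1 (-0.95) and PDGFRA (1.18) did not pass the threshold. In entinostat 3 were called higher and 1, PDGFRA (-1.92), lower in the BRCA1-null line. The part of other cell types in the differences below was not tested.

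GAS matches were present in the promoters of IRF9 and IRF1 among the promoters read. The promoters, from RefSeq on GRCh38.p14, run from 250 bases before to 50 bases after a gene's start, and were available for 8 genes (IFNAR2 was not matched). They were searched on both strands for TTCNNNGAA (GAS) and for GAAANNGAAA (ISRE core, with its reverse complement TTTCNNTTTC). A GAS match was held by 2 of the 8 genes and an ISRE match by 0 of the 8. Of all 27305 genes with a promoter, 9.38% held a GAS match and 4.38% an ISRE match. Stretches upstream of the start of IRF9 (chr14:24161145-24161244, plus strand) and IRF1 (chr5:132490854-132490953, minus strand) are shown because these were the matches found, with the match in capitals:
IRF9: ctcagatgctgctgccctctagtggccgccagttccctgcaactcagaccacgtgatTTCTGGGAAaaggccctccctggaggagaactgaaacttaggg
IRF1: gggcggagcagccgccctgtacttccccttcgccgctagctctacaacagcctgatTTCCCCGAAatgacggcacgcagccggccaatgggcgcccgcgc
The first base of the match lay at -63 from the start of IRF9 and at -124 from that of IRF1.

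Among the genes that the STAT2 and IRF9 complex is known to switch on, 36 of 43 listed genes had a promoter and 26 of those (72.2%) held an ISRE match, against the same 4.38% of all genes. The share was not particular to this list. Of 29 listed target genes of interferon-gamma and IRF1, 20 had a promoter and 16 of those (80%) held an ISRE match. GAS matches were held by 30.6% of the first list and 30% of the second, against 9.38% of all genes. Upstream stretches of OAS3 (chr12:112938314-112938473, plus strand) and IFI44 (chr1:78649719-78649788, plus strand), which are described below, show the matches in capitals, on the complementary strand for IFI44:
OAS3: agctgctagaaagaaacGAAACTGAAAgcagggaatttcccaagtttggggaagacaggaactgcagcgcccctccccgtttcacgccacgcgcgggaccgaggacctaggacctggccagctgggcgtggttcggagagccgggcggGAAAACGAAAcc
IFI44: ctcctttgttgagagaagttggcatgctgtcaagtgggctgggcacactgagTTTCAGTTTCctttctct
A match in these letters is a description and does not show that a factor was bound there in these cells.

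Low counts removed none of the 9, and 17714 genes were tested. Of the 9, 4 differed between BRCA1-null and BRCA1+ cells in DMSO, against a background of 42.2% called over the tested genes (in BRCA1-null, 21.1% higher and 21% lower). Higher in BRCA1-null cells were IFNAR1, IFNAR2 and IRF9, and lower was JAK1. In entinostat 3 of the 9 differed between the lines, against 39.4% of tested genes (20.5% higher, 18.9% lower): IFNAR2 and IRF9 were higher in BRCA1-null and JAK1 was lower. Entinostat raised 1 of the 9, IFNGR2, in each line, where 14.1% of tested genes were called in the BRCA1+ line (8.15% higher, 6% lower) and 10.8% in the BRCA1-null line (7.57% higher, 3.19% lower). The median log2 fold change of the 9 genes was 0.034 between the lines in DMSO (0.012 over all tested genes), 0.055 in entinostat (0.019), 0.19 for entinostat in the BRCA1+ line (0.00041) and 0.11 in the BRCA1-null line (0.019). The shares called were near the background in each of these comparisons. Calls were made at an adjusted p-value under 0.05 (Benjamini-Hochberg) in edgeR's quasi-likelihood test, and adjusted p-values below come from it.

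**Figure D1:**
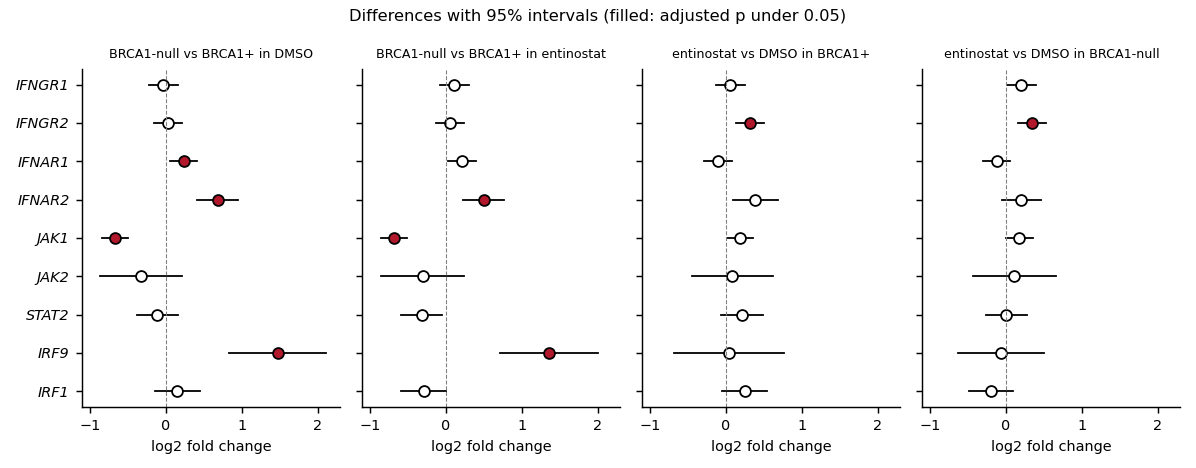
Log2 fold change (x axis) of each gene with its 95% interval in 4 comparisons, 2 libraries per group, where filled points passed an adjusted p-value of 0.05. IRF9 at 1.47 and 1.36 lies farthest from 0 in the comparisons of the lines, JAK1 stands at -0.67 and -0.68, and IFNGR2 at 0.32 and 0.34 is filled in both comparisons of entinostat with DMSO.

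The interaction, the entinostat effect in BRCA1-null minus that in BRCA1+ cells, called 0 of the 9 genes and 0% of tested genes. At an unadjusted p under 0.05 it reached 1 of the 9 genes and 827 of 17714. The edgeR likelihood ratio test called 18 of all genes and DESeq2 11, with 0 of the 9 in either. When BRCA1+ cells in entinostat were compared with BRCA1-null cells in DMSO, 5 of the 9 differed, against 47.9% of tested genes (24.4% higher, 23.5% lower). JAK1, IFNGR2 and STAT2 were higher and IFNAR1 and IRF9 lower in the BRCA1+ entinostat libraries. This comparison shares its libraries with the others.

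Per gene length, JAK1 had the highest level of the 9 genes in all 4 groups, from 27.5 ± 0.603 (SD, n = 2) CPM per kilobase in BRCA1-null control to 49.9 ± 3.54 in BRCA1+ entinostat cells. JAK2 had the lowest, from 0.972 ± 0.307 in BRCA1-null control to 1.30 ± 0.194 in BRCA1+ entinostat cells. In BRCA1+ control cells the order was JAK1, IFNGR2, IFNGR1, STAT2, IRF9, IFNAR1, IRF1, IFNAR2 and JAK2. The libraries of STAT2 and IRF9, and of IRF9 and IFNAR1, overlapped there, while the other neighbours in the order did not. In BRCA1-null control cells IRF9 stood second at 18.1 ± 6.86, and its libraries overlapped those of IFNGR2 at 13.9 ± 0.979. In BRCA1-null entinostat cells IRF9 stood behind IFNGR2, again with overlapping libraries. STAT2, which acts with IRF9, stayed between 7.10 and 8.90 CPM per kilobase as a group mean. The ratio of IRF9 to STAT2 per length was 0.667 to 0.937 in the BRCA1+ libraries and 1.92 to 3.15 in the BRCA1-null libraries, without overlap.

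**Figure D2:**
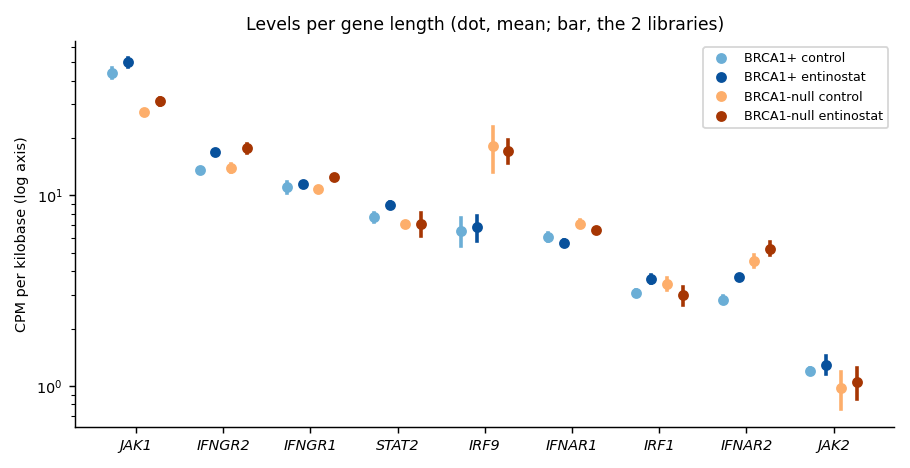
Level per gene length (CPM per kilobase, log axis) of the 9 genes in the 4 groups, where dots are means and bars span the 2 libraries. JAK1 is highest and JAK2 lowest in each group, and IRF9 stands at 6.52 and 6.80 in the BRCA1+ groups and at 18.1 and 17.1 in the BRCA1-null groups.

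IFNAR2, the chain of the type I receptor that binds interferon most tightly, was higher in BRCA1-null cells. Its level was 9.36 and 8.61 CPM under DMSO and 12.0 and 11.6 under entinostat in the BRCA1+ line, and 13.3 and 15.4 under DMSO and 15.4 and 17.9 under entinostat in the BRCA1-null line. The libraries of the lines did not overlap under either treatment. The log2 difference between lines was 0.68 ± 0.122 (SE) in DMSO (1.61-fold, adjusted p = 0.0019) and 0.50 ± 0.119 under entinostat (adjusted p = 0.00893). The entinostat call was lost without BRCA1+ entinostat replicate 2 (adjusted p = 0.0765) and without BRCA1-null entinostat replicate 2 (adjusted p = 0.0616). Entinostat against DMSO gave 0.39 ± 0.129 in the BRCA1+ line (adjusted p = 0.0762) and 0.21 ± 0.112 in the BRCA1-null line (adjusted p = 0.274), neither past the threshold. The BRCA1+ value passed with upper-quartile factors (adjusted p = 0.0499) and in the edgeR likelihood ratio test (adjusted p = 0.0433). It also passed with the replicate number added as a block (adjusted p = 0.037).

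IFNAR1, the other chain of the type I receptor, had 35.1 and 38.5 CPM under DMSO and 32.9 and 35.7 under entinostat in the BRCA1+ line, and 41.4 and 45.3 under DMSO and 40.1 and 39.9 under entinostat in the BRCA1-null line. The libraries of the lines did not overlap. The difference was smaller than for IFNAR2, at log2 0.24 ± 0.0801 in DMSO (adjusted p = 0.0396), and 0.22 ± 0.0821 in entinostat did not pass (adjusted p = 0.0614). With the replicate number added as a block the entinostat value passed (adjusted p = 0.0148). The DMSO call was lost under 9 of 18 alternatives, with adjusted p up to 0.228. Among the libraries compared, it was lost without BRCA1+ control replicate 1 (adjusted p = 0.207) and without BRCA1-null control replicate 2 (adjusted p = 0.228). It was also lost without each of the 4 entinostat libraries (adjusted p = 0.0534 to 0.0537). In BRCA1+ entinostat against BRCA1-null control cells IFNAR1 was lower by log2 -0.34 ± 0.0812 (adjusted p = 0.00788), a call lost without BRCA1+ entinostat replicate 1 (adjusted p = 0.0665) or BRCA1-null control replicate 2 (adjusted p = 0.0613).

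IFNAR2, IFNAR1 and IFNGR2 lie together on chromosome 21 with IL10RB, a receptor chain for interleukin-10 and the lambda interferons. On hg19 their order is IFNAR2 (chr21:34602200-34636818), IL10RB (chr21:34638665-34669539), IFNAR1 (chr21:34697214-34732128) and IFNGR2 (chr21:34775202-34809828), all on the plus strand. The log2 difference between lines in DMSO was 0.68, 0.99, 0.24 and 0.03 in that order. IL10RB, the next tested gene after IFNAR2, went from 5.50 and 7.17 CPM in BRCA1+ control to 11.1 and 14.0 in BRCA1-null control libraries (0.99 ± 0.160, adjusted p = 0.00112). The 20 tested neighbours of IFNAR2 had a median log2 difference of 0.016, with 4 called higher and 1 lower. Over all tested genes 21.1% were called higher and 21% lower.

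IFNGR2, the signal-transducing chain of the interferon-gamma receptor, was the gene that entinostat raised. It had 29.5 and 30.8 CPM in BRCA1+ control and 37.3 and 38.0 in BRCA1+ entinostat libraries, then 32.4 and 29.4 under DMSO and 37.2 and 41.1 under entinostat in the BRCA1-null line. Treated and control libraries did not overlap in either line. The change was log2 0.32 ± 0.0825 in the BRCA1+ line (1.25-fold, adjusted p = 0.0332) and 0.34 ± 0.0805 in the BRCA1-null line (1.27-fold, adjusted p = 0.0298). The BRCA1+ call was lost without each of the 4 BRCA1+ libraries in turn (log2 0.29 to 0.35, adjusted p = 0.0982 to 0.169). The BRCA1-null call was lost without each of the 4 BRCA1-null libraries and without either BRCA1+ entinostat library (log2 0.27 to 0.41, adjusted p = 0.0516 to 0.172), and when only the groups compared were fitted (adjusted p = 0.0913). The lines did not differ past the threshold: 0.03 (95% interval -0.15 to 0.22) in DMSO and 0.06 (-0.13 to 0.24) in entinostat. The deposited position of IFNGR2 overlaps that of TMEM50B on the opposite strand, and the counting of strand was not given. TMEM50B was at 0.04 ± 0.107 with entinostat in the BRCA1+ line and at -0.09 ± 0.104 in the other, neither past the threshold.

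IFNGR1, the ligand-binding chain of that receptor on chromosome 6 (chr6:137518621-137540567), passed the threshold in no comparison. Its level was 21.9 and 24.8 CPM under DMSO and 24.0 and 24.7 under entinostat in the BRCA1+ line, and 23.3 and 22.5 under DMSO and 26.9 and 25.8 under entinostat in the BRCA1-null line. The control libraries of the lines overlapped, with a log2 difference of -0.03 (95% interval -0.22 to 0.16). Entinostat gave 0.20 ± 0.0832 in the BRCA1-null line (adjusted p = 0.151), where treated and control libraries did not overlap.

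**Figure D3:**
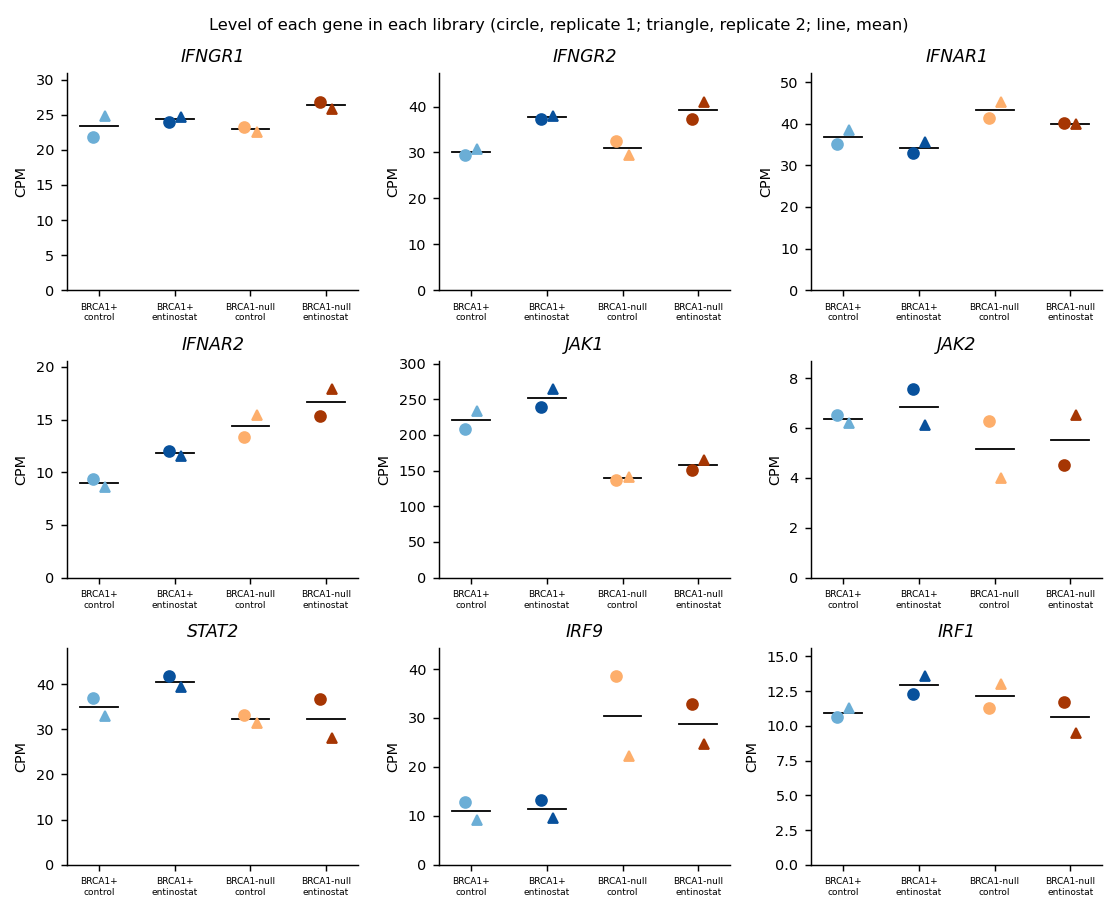
Level of each gene (CPM, y axis from 0) in the 8 libraries by group, where circles are replicate 1, triangles replicate 2 and lines the mean. JAK1 is lower and IRF9, IFNAR2 and IFNAR1 are higher in the BRCA1-null libraries without overlap between lines, and IFNGR2 is higher in the entinostat libraries of each line.

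JAK1, the kinase that both receptors share, was lower in BRCA1-null cells. It had 208 and 234 CPM under DMSO and 239 and 265 under entinostat in the BRCA1+ line, and 137 and 141 under DMSO and 151 and 164 under entinostat in the BRCA1-null line. The lowest BRCA1+ library stood above the highest BRCA1-null library. The log2 difference was -0.67 ± 0.0779 in DMSO (1.59-fold lower, adjusted p = 0.000165) and -0.68 ± 0.0779 under entinostat (adjusted p = 0.000154), and both calls held under each of 18 alternatives. BRCA1+ entinostat cells exceeded BRCA1-null control cells by 0.86 ± 0.0781 (adjusted p = 3.1e-05). Entinostat against DMSO gave 0.19 ± 0.0773 in the BRCA1+ line (adjusted p = 0.139) and 0.18 ± 0.0781 in the BRCA1-null line (adjusted p = 0.178). With the replicate number added as a block both values passed (adjusted p = 0.0161 and 0.0273).

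The neighbourhood of JAK1 moved in the same direction between the lines. JAK1 lies at chr1:65298906-65432187 on the minus strand, and of its 20 tested neighbours 16 were lower and 2 higher past the threshold between the lines in DMSO, with a median of log2 -0.58. Over all tested genes 21% were called lower and 21.1% higher. RAVER2, which overlaps JAK1 on the opposite strand, differed by -0.77 ± 0.0822 (26.4 ± 0.377 CPM in BRCA1+ control and 15.5 ± 1.12 in BRCA1-null control, adjusted p = 9.97e-05). The part of the region in the JAK1 difference was not tested.

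JAK2, the second kinase of the interferon-gamma receptor, passed the threshold in no comparison and had, beside IRF9, the widest standard errors. Its level was 6.53 and 6.21 CPM under DMSO and 7.57 and 6.12 under entinostat in the BRCA1+ line, and 6.29 and 3.99 under DMSO and 4.50 and 6.54 under entinostat in the BRCA1-null line. The lines overlapped, and the difference in DMSO was -0.33 (95% interval -0.86 to 0.21). Its 20 tested neighbours on chromosome 9 (JAK2 itself at chr9:4985245-5128183) had a median of -0.52 in that comparison, with 11 called lower and 2 higher. Over all tested genes 21% were called lower and 21.1% higher. Without BRCA1-null control replicate 1, JAK2 passed the threshold in BRCA1+ entinostat against BRCA1-null control cells (log2 0.74, adjusted p = 0.0377), where the value from all libraries was 0.41 ± 0.240 (adjusted p = 0.186).

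IRF9, the DNA-binding subunit of the complex formed after type I interferon, showed the largest difference of the 9 genes between the lines. Its level was 12.8 and 9.11 CPM under DMSO and 13.2 and 9.66 under entinostat in the BRCA1+ line, and 38.5 and 22.3 under DMSO and 32.8 and 24.7 under entinostat in the BRCA1-null line. The lowest BRCA1-null library stood above the highest BRCA1+ library. The log2 difference was 1.47 ± 0.281 in DMSO (2.78-fold, 95% interval 0.84 to 2.11, adjusted p = 0.00274) and 1.36 ± 0.287 in entinostat (2.57-fold, adjusted p = 0.00481). In bulk RNA a lower share of cells expressing a gene and less RNA per cell cannot be told apart. The DMSO call held under each of 18 alternatives (log2 1.05 to 1.82), and the entinostat call was lost in 1, without BRCA1+ entinostat replicate 2 (log2 1.13, adjusted p = 0.0569). The values for entinostat against DMSO were 0.04 (95% interval -0.68 to 0.76) for BRCA1+ and -0.07 (-0.63 to 0.50) for BRCA1-null cells. IRF9 lies at chr14:24630422-24635774, and of its 20 tested neighbours 8 were higher and 0 lower past the threshold between the lines in DMSO, with a median of 0.28. Over all tested genes 42.2% were called there, 21.1% higher and 21% lower.

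IRF9 also varied between replicates. In BRCA1-null control cells replicate 1 exceeded replicate 2 by 1.73-fold, a coefficient of variation of 37.9%, where the median over tested genes was 6.56%. Replicate 1 was the higher library for IRF9 and for STAT2 in each of the 4 groups, and for JAK1 in none.

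STAT2, the partner of IRF9, had 37.0 and 32.9 CPM under DMSO and 41.8 and 39.3 under entinostat in the BRCA1+ line, and 33.1 and 31.4 under DMSO and 36.7 and 28.0 under entinostat in the BRCA1-null line. The control libraries of the lines overlapped, and the log2 difference in DMSO was -0.11 (95% interval -0.38 to 0.16). In entinostat BRCA1-null cells were at -0.32 ± 0.121 (adjusted p = 0.0645, and 0.00763 with the replicate number added as a block). That value passed in the DESeq2 Wald test (adjusted p = 0.0297) and the edgeR likelihood ratio test (adjusted p = 0.0474), and without BRCA1-null entinostat replicate 1 (-0.53, adjusted p = 0.00659). STAT2 was higher in BRCA1+ entinostat than in BRCA1-null control cells (0.33 ± 0.120, adjusted p = 0.0497). That call was lost under 11 of 18 alternatives, among them each of the 4 libraries compared left out in turn and either BRCA1+ control library (log2 0.29 to 0.37, adjusted p = 0.0504 to 0.183).

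IRF1, the transcription factor that interferon-gamma induces, passed the threshold in no comparison. Its level was 10.6 and 11.3 CPM under DMSO and 12.3 and 13.6 under entinostat in the BRCA1+ line, and 11.3 and 13.0 under DMSO and 11.7 and 9.51 under entinostat in the BRCA1-null line. Its values with entinostat had opposite signs, 0.25 ± 0.132 in the BRCA1+ line (adjusted p = 0.255) and -0.19 ± 0.129 in the BRCA1-null line (adjusted p = 0.376). The interaction was -0.44 ± 0.184, with an unadjusted p of 0.0396 in the quasi-likelihood test and an adjusted p of 0.967. Between the lines in DMSO IRF1 was at 0.15 ± 0.129 (adjusted p = 0.368), while its 20 tested neighbours on chromosome 5 had a median of -0.57, with 8 called lower and 2 higher. Over all tested genes 21% were called lower and 21.1% higher.

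Transcripts of the interferons themselves were nearly absent. Of 21 ligand genes in the table, 13 had no count in any library, IFNG among them, which allows up to 0.0552 to 0.0946 CPM. IFNB1 had 0 or 1 counts per library. IFNE, an epithelial type I interferon, was the 1 ligand that passed the filter, at 13 to 40 counts, and IFNK had 2 to 10 counts. Between lines in DMSO IFNE was at 0.04 ± 0.521 (adjusted p = 0.96).

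Among the other receptor chains and kinases, 4 of 5 listed names were tested. Between the lines in DMSO only IL10RB was called, a share of 25% against 42.2% of all genes. TYK2 was at 72.8 ± 0.389 CPM in BRCA1+ and 80.5 ± 0.625 in BRCA1-null control cells (0.15 ± 0.0598, adjusted p = 0.0769). In entinostat IL10RB (0.68) and TYK2 (0.25) were higher and JAK3 (-0.74) lower in BRCA1-null cells, a share of 75% against 39.4%. Entinostat raised IL10RB (0.65 ± 0.170, adjusted p = 0.0352) and JAK3 (0.64 ± 0.179, adjusted p = 0.0434) in BRCA1+ cells, a share of 50% against 14.1% of all genes. In the BRCA1-null line 0 of 4 passed, against 10.8%, with IL10RB at 0.34 ± 0.140 and JAK3 at 0.13 ± 0.191. The interaction was not called for either gene (adjusted p = 0.967 for both). JAK3, the kinase of cytokine receptors with the common gamma chain, stood at 4.94 ± 0.474 CPM in BRCA1+ control.

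Of 10 tested genes among the other STATs and IRFs, 6 were higher and 1 lower in BRCA1-null cells in DMSO, and again 6 and 1 in entinostat, a share of 70% called against 42.2% and 39.4% of all genes. IRF7, which drives type I interferon expression, had 8.50 and 7.17 CPM in BRCA1+ control and 22.0 and 11.6 in BRCA1-null control libraries, a difference of 1.09 ± 0.296 (adjusted p = 0.016). As with IRF9, its higher BRCA1-null control library was replicate 1. STAT4 (2.29 ± 0.559, from 4 and 3 counts to 18 and 23), STAT5A (0.80 ± 0.158), IRF5 (0.71 ± 0.131) and STAT6 (0.25 ± 0.0603) were among the others that were higher. IRF3, the factor activated by cytosolic nucleic acid sensing, was lower, at 119 ± 5.98 CPM in BRCA1+ and 92.1 ± 1.31 in BRCA1-null control cells (-0.37 ± 0.0598, adjusted p = 0.00105). Entinostat raised IRF5 in the BRCA1+ line (0.83 ± 0.134, adjusted p = 0.00558) and in the BRCA1-null line (0.76 ± 0.112, adjusted p = 0.00525), and called no other of the 10.

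All 13 genes listed as brakes on the pathway were tested, and 2 were higher and 3 lower in BRCA1-null cells in DMSO, a share of 38.5% that is near the 42.2% of all genes. SOCS2, a suppressor of cytokine signalling best known for growth hormone, fell from 23.8 and 25.6 CPM in BRCA1+ control to 9.47 and 14.0 in BRCA1-null control libraries (-1.06 ± 0.182, adjusted p = 0.00155). PIAS3 (-0.23) and the phosphatase gene PTPN1 (-0.20) were lower, while CISH (0.85) and PTPN11 (0.23) were higher. SOCS1, the inhibitor of JAK kinases, was at 0.833 ± 0.131 CPM in BRCA1+ and 0.504 ± 0.219 in BRCA1-null control cells (-0.75 ± 0.363, adjusted p = 0.128). USP18, which limits signalling at IFNAR2, was at 29.5 ± 0.455 and 26.5 ± 1.79 CPM in the same groups (-0.15 ± 0.0866, adjusted p = 0.182). Entinostat lowered PTPN2, a phosphatase of JAK1, in the BRCA1+ line (-0.27 ± 0.0759, adjusted p = 0.0464) and in the BRCA1-null line (-0.34 ± 0.0739, adjusted p = 0.0239), and lowered PTPN11 in BRCA1+ cells (-0.17).

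Of 41 tested target genes of the STAT2 and IRF9 complex, 22 were higher and 2 lower in BRCA1-null cells in DMSO, with a median log2 difference of 0.60 (0.012 over all tested genes), and 58.5% were called against 42.2% of all genes. The highest called values were OAS2 (7.15 ± 1.67), an antiviral oligoadenylate synthetase with 5 and 2 counts in BRCA1+ control and 993 and 157 in BRCA1-null control libraries, IFI44 (5.24 ± 0.573, 22 and 12 against 938 and 542 counts) and IFI44L (4.73 ± 1.36, 6 and 3 against 240 and 42 counts). OAS3, whose upstream stretch is shown above, went from 11.6 and 6.62 to 90.3 and 41.7 CPM. PLSCR1 (-0.45) and BST2 (-0.23) were lower. In entinostat 13 of 41 were higher and 1 lower, a median of 0.46 and a share of 34.1% against 39.4% of all genes. The count of 22 depended on single libraries: it fell without either BRCA1+ control library or BRCA1-null control replicate 1. The count of 13 fell without either BRCA1+ entinostat library or BRCA1-null entinostat replicate 1, and rose without BRCA1-null control replicate 2. Fewer of all tested genes were called as well in each fit where these counts fell. Such fits leave 1 library in a group. Entinostat raised 2 of the 41 in the BRCA1+ line (4.88% called, against 14.1% of all genes) and 3 in the BRCA1-null line (7.32% against 10.8%). Both shares were below those of all genes. ISG20, an antiviral exonuclease, and UBE2L6, the conjugating enzyme for ISG15, were among the raised genes in each line (UBE2L6 1.70 ± 0.155 and 1.22 ± 0.142). The count of 2 rose without either BRCA1-null control library, and fell without BRCA1+ control replicate 2 or either BRCA1+ entinostat library. With only the groups compared it was 8, where 2583 of 16864 tested genes were called. The count of 3 fell without BRCA1-null control replicate 2 or BRCA1-null entinostat replicate 1. With only the groups compared it was 1, where 712 of 17359 tested genes were called. In each fit where these counts fell, fewer of all tested genes were called as well.

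**Figure D4:**
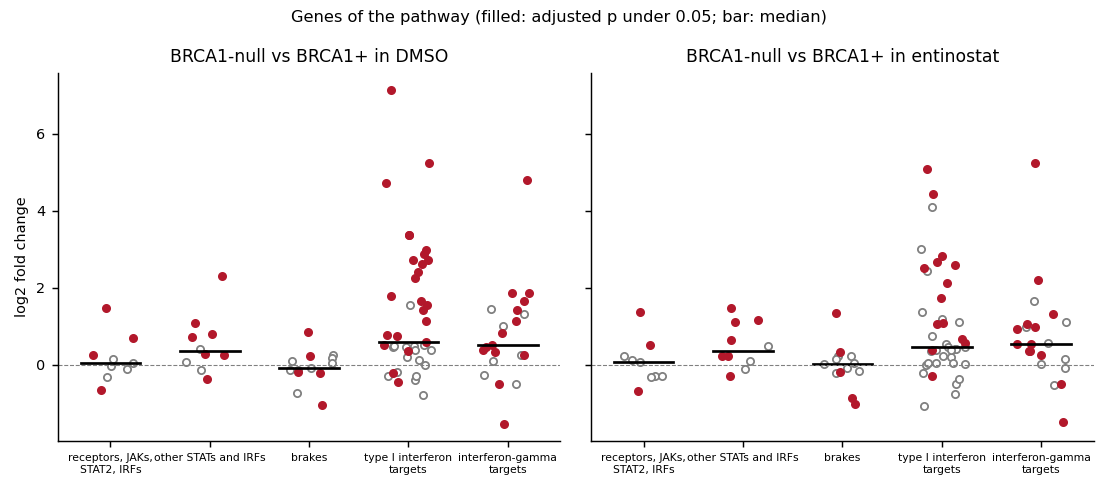
Log2 fold change (y axis) of BRCA1-null against BRCA1+ cells for the 9 genes and 4 lists in DMSO and in entinostat, where filled points passed an adjusted p-value of 0.05 and bars are medians. The target genes of type I interferon have a median of 0.60 in DMSO and 0.46 in entinostat, and those of interferon-gamma 0.50 and 0.55.

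Of 29 listed target genes of interferon-gamma and IRF1, 21 were tested and 7 had no count in any library. Of those 7, TAP1, TAP2, TAPBP, PSMB8 and PSMB9, which prepare peptides for MHC class I, were placed by the table on alternative haplotypes of chromosome 6, so that their 0 is no measurement. In DMSO 12 of 21 were higher and 2 lower in BRCA1-null cells, with a median of 0.50, and 66.7% were called against 42.2% of all genes. GBP2 (1.87 ± 0.518), GBP5 (1.86 ± 0.552) and the MHC class I activator gene NLRC5 (1.66 ± 0.300) were higher, and the chemokine gene CXCL10 had 28 and 12 counts in BRCA1-null control against 1 and 0 in BRCA1+ control libraries (adjusted p = 0.0167). GBP1 (-1.54 ± 0.229) was among the lower. The count of 12 fell without BRCA1-null control replicate 1 or BRCA1+ control replicate 2. In entinostat 11 were higher and 2 lower, a median of 0.55 and a share of 61.9% against 39.4%. The count of 11 fell without either BRCA1+ entinostat library. Fewer of all tested genes were called as well in each of these fits. Entinostat raised 4 of the 21 in the BRCA1+ line and 5 in the BRCA1-null line, and in both ICAM1, NLRC5 and CD274, which encodes PD-L1, were among them (CD274 0.86 ± 0.151 and 0.88 ± 0.126). It lowered 1 in each line, the immunoproteasome subunit gene PSMB10 in BRCA1+ cells (-0.43, adjusted p = 0.0397) and the aminopeptidase gene LAP3 in BRCA1-null cells (-0.23, adjusted p = 0.0494). The shares called were 23.8% against 14.1% of all genes and 28.6% against 10.8%. Without single libraries of the line compared both counts of raised genes fell, and fewer of all tested genes were called as well.

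The target genes of type I interferon also varied between the libraries of a group in the way IRF9 did. In BRCA1-null control cells 39 of 41 were higher in replicate 1 than in replicate 2, with a median log2 ratio of 0.75 and summed levels of 1614 and 1195 CPM. In BRCA1-null entinostat cells all 41 were higher in replicate 1 (median 0.40, 1491 and 1290 CPM). The counts were 31 of 41 in BRCA1+ control (median 0.19) and 28 of 41 in BRCA1+ entinostat cells (median 0.11), where the share among tested genes was 49.2% to 50.2% in the 4 groups. Whether replicate numbers mark a shared day or batch is not given in the labels, and the part of the replicate in these values was not tested. The lowest summed level in a BRCA1-null library, 1195 CPM, lay above the highest in a BRCA1+ library, 1171 CPM, so that the summed levels did not overlap but came close. Abundant genes weigh most in the sum. Between BRCA1+ and BRCA1-null control cells BST2 went from 186 to 159 CPM and OAS2 from 0.0843 to 12.4.

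**Figure D5:**
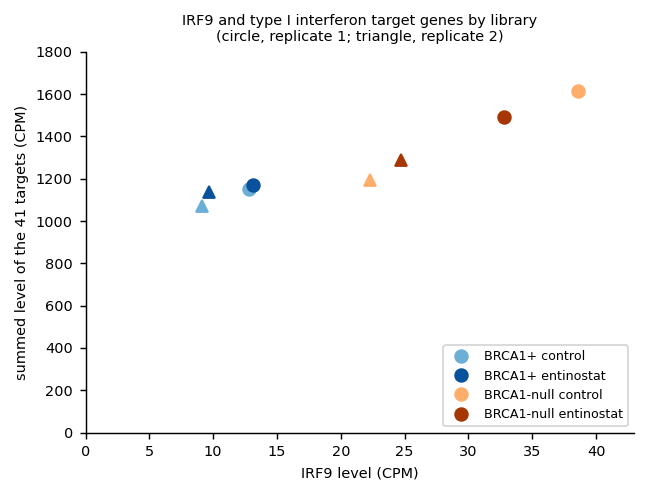
IRF9 level (x axis, CPM) and summed level of the 41 type I interferon target genes (y axis, CPM) in the 8 libraries, circles for replicate 1 and triangles for replicate 2. The sums run from 1073 to 1171 CPM in the BRCA1+ libraries and from 1195 to 1614 in the BRCA1-null libraries, and replicate 1 is higher than replicate 2 in each group on both axes.

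Out of 10404 genes whose mean log2 CPM reached 3, the levels most like those of IRF9 over the 8 libraries were those of the co-chaperone gene DNAJA4 (Pearson r = 0.998), TBC1D2 (r = 0.998) and the translation factor gene EIF4A2 (r = 0.994). DNAJA4 stood at 7.87 ± 1.79 CPM in BRCA1+ control and 22.5 ± 8.11 in BRCA1-null control cells. For IFNAR2 they included LRRC20, and for JAK1 they were ZFAND3, RPA1 and CDC42. For IFNGR2 they were UGCG (r = 0.983), FIBP and PDIA3, and for IFNAR1 GTPBP10 (r = 0.994), ANAPC16 and AP5Z1. RAB3D, SLC35A2 and LOC646719 were nearest to STAT2, ZNF302, ZC3H12C and ARL6IP5 to IFNGR1, DONSON, NUP98 and MED14 to JAK2, and GFOD2, MRI1 and SLC35E2 to IRF1. These r values rest on 8 libraries that share their groups and are given as a description.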

How the data were processed

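The authors used TopHat 2 for alignment of the poly(A) reads (build hg19) and NGSUtils for counting, and deposited 1 table of raw counts, whose treatment of strand and of multiply mapped reads is not given in the sources used here. Groups were taken from the sample labels. Genes were kept by filterByExpr, scaled by TMM, and tested in edgeR 4.0.16 (R 4.3.3) by a two-sided quasi-likelihood test (legacy set to FALSE) on 8 libraries with 4 residual degrees of freedom. P-values were adjusted by Benjamini-Hochberg over 17714 genes, in 6 comparisons. CPM used TMM library sizes, and fitted fold changes a prior count of 0.125. Replicate libraries were 2 per group. Members and gene lists were chosen with earlier results of these data known. Named genes were the members, any ligand, receptor, STAT, IRF or brake gene, up to 3 called genes per direction, target list and comparison, and overlapping or most similar genes; OAS3, CXCL10, CD274, ICAM1, the markers of other cell types and the unmeasured antigen processing genes were partly chosen after their values were seen. Neighbourhoods held 10 tested genes on each side. Their counts between the lines in DMSO compare with 21.1% of all tested genes called higher and 21% lower. Alternatives covered scaling, filters, tests (DESeq2 1.42.0), a replicate block, thinning and left-out libraries. Values of some genes that the naming rule covers are not reported here.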

Additional observations from a re-analysis of the deposited data

How the results depend on the processing

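With 2 libraries per group, small differences cannot be separated from library spread. Of 963 values of single genes under the alternatives, 866 kept their direction and side of the threshold, 39 lost a call, 13 gained one and 45 changed sign. None of the changes of sign was of a called value. The number of the 9 genes called between the lines in DMSO stayed at 3 or 4. Where the replicate number was added as a block (replicate block), 5 were called between the lines in entinostat, 3 for entinostat in BRCA1+ and 2 in BRCA1-null cells. The block added JAK1 with entinostat in both lines (adjusted p = 0.0161 and 0.0273), IFNAR2 with entinostat in BRCA1+ cells (adjusted p = 0.037) and STAT2 (adjusted p = 0.00763) and IFNAR1 (adjusted p = 0.0148) between the lines in entinostat. Same-numbered libraries had correlations of deviations of 0.0523 to 0.287 over 6 pairs of groups, all positive. The labels give no shared day or batch, so the main test did not pair the libraries. Between the lines in entinostat the block called 8394 of 17714 tested genes, against 6973 without it. For entinostat in BRCA1+ cells the block called 4319 of all genes, against 2505 without it. In BRCA1-null cells it called 3641, against 1906. Whether same-numbered libraries share an effect was not tested. For entinostat in BRCA1+ cells upper-quartile factors and the likelihood ratio test each called 2. For entinostat in BRCA1-null cells fits on only the groups compared called 0. With single libraries left out, the counts ran from 1 to 4 between the lines in entinostat, from 0 to 1 for entinostat in each line, and from 2 to 6 for BRCA1+ entinostat against BRCA1-null DMSO. Causes were not tested. Of the list counts added after seeing the data, the type I target genes called higher in entinostat between the lines were 21 with only the groups compared. That fit called 6877 of 17355 tested genes.

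Values that changed sign outside left-out libraries were these. With upper-quartile factors IFNGR1 in DMSO between the lines was 0.012, and the interactions were -0.021 for IFNGR2 and -0.017 for JAK2. With the stricter filter they were 0.0053, -0.015 and -0.010, and STAT2 with entinostat in BRCA1-null cells was -0.0044. STAT2 there was -0.00088 with DESeq2 size factors, -0.0038 with the DESeq2 Wald test, -0.0028 with the replicate block and -0.013 with only the groups compared. The JAK2 interaction in the DESeq2 Wald test was -0.0053. With single libraries left out, the lines in DMSO gave -0.117 to 0.064 for IFNGR1 and -0.018 to 0.105 for IFNGR2, and in entinostat -0.016 to 0.126 for IFNGR2. Entinostat in BRCA1+ cells gave -0.025 to 0.155 for IFNGR1, -0.051 to 0.247 for JAK2 and -0.189 to 0.300 for IRF9. Entinostat in BRCA1-null cells gave -0.198 to 0.432 for JAK2, -0.205 to 0.187 for STAT2 and -0.420 to 0.348 for IRF9. IRF1 in BRCA1+ entinostat against BRCA1-null DMSO was -0.016 to 0.206. The interaction was -0.050 to 0.092 for IFNGR2, -0.111 to 0.051 for IFNAR1, -0.101 to 0.064 for JAK1, -0.284 to 0.339 for JAK2 and -0.465 to 0.296 for IRF9.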
